A study of Arabidopsis thaliana with 12 samples.

Results

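The 4 genes described here, AT1G61990, AT1G62010, AT1G62150 and AT1G79220, belong to the mTERF family of Arabidopsis thaliana and were chosen by name, each on the probe annotated to that gene alone. They are 4 of 689 genes with a probe of their own on an array of 3439 probes, and each of them had 1 such probe. RNA levels had been measured in 12 samples of total RNA from wild-type plants of ecotype Wassilevskija: 6 treated for 6 h with MS medium to which 60 mM sucrose was added, and 6 labelled water. MS (Murashige and Skoog) medium is a mixture of mineral salts for plant culture, so the groups differ by at least the salts and the sugar. The length of the water treatment, the plant organ and the plant age were not given in the sources used here. Both groups carry sample numbers 1 to 6 of unstated meaning. Separate plants per sample are not stated either, and the p-values below reflect the spread among the 12 samples as labelled, part or all of which may be technical. Fewer cells of a type and less RNA per cell cannot be told apart in such samples.

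The mTERF proteins take their name from an animal mitochondrial transcription termination factor. They are built from repeats of a helical motif and bind nucleic acids. The plant family is much larger than the animal one, is encoded in the nucleus and acts in plastids and mitochondria, where members take part in transcription, intron splicing and ribosome assembly, and loss of several of them disturbs chloroplast development and growth. AT1G61990, AT1G62010 and AT1G62150 lie in a stretch of chromosome 1 rich in the family: in the RefSeq gene table of TAIR10.1, 9 of the 19 protein-coding genes from AT1G61960 to AT1G62150 are mTERF genes. AT1G61990 and AT1G62010 are separated by 1 protein-coding gene, and AT1G62010 and AT1G62150 by 12, of which 3 are mTERF genes. AT1G79220 lies on the same chromosome with 1798 protein-coding genes between it and AT1G62150. That table is of the Columbia accession, and it is used here only for names and gene order.

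All 4 genes had higher deposited intensities after MS with sucrose, as did the array as a whole. These intensities are in arbitrary units and were treated as linear, and their scaling before deposit was not given. AT1G79220 had the largest ratio of mean intensities, 3.07, followed by AT1G61990 at 2.33, AT1G62010 at 2.27 and AT1G62150 at 1.49. Once the samples were brought to a common distribution by quantile normalization, AT1G79220 was at a log2 difference of 0.69, AT1G61990 at 0.38, AT1G62010 at 0.31 and AT1G62150 at 0.09, and 0 of the 4 passed the test across all probes, of which 37.5% passed. With the sample number as a block in the fit, AT1G79220, AT1G61990 and AT1G62010 passed, all higher after MS with sucrose, in a fit where 38.3% of all probes passed, 18.6% higher. With the number as a random block AT1G79220 alone of the 4 passed (40.5% of all probes), and with adjacent numbers averaged 0 of the 4 did (21.8% of all probes). All differences are MS with sucrose minus water. Those called normalized are on the scale of log2(intensity + 0.0718) after quantile normalization, which understates the change of dim probes.

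AT1G61990 had deposited intensities of 0.447, 0.490, 0.638, 0.907, 0.705 and 0.653 in samples 1 to 6 of MS with sucrose, against 0.229, 0.236, 0.301, 0.283, 0.289 and 0.311 in samples 1 to 6 of water. The groups did not overlap, samples 1 and 2 were the lowest in both groups, and sample 4 of MS with sucrose stood highest. Means with SD were 0.640 ± 0.165 in the group given MS with sucrose and 0.275 ± 0.0344 in the water group (n = 6 each).

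AT1G62010, the next mTERF gene along the chromosome, had intensities of 0.397, 0.472, 0.453, 0.458, 0.723 and 0.542 after MS with sucrose, against 0.185, 0.161, 0.192, 0.187, 0.302 and 0.316 in water. Here samples 5 and 6 were the highest in both groups, and the groups again did not overlap. Means with SD were 0.508 ± 0.115 in the group given MS with sucrose and 0.224 ± 0.0669 in the water group (n = 6 each).

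AT1G62150 had intensities of 1.17, 1.45, 1.03, 1.22, 0.9997 and 0.943 after MS with sucrose, against 0.685, 0.828, 0.783, 0.896, 0.743 and 0.650 in water. The lowest sample of MS with sucrose, number 6, was just above the highest water sample, number 4. Sample 6 was also the lowest water sample. Means with SD were 1.14 ± 0.186 in the group given MS with sucrose and 0.764 ± 0.0913 in the water group (n = 6 each).

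AT1G79220 had intensities of 0.789, 0.683, 0.453, 0.465, 1.41 and 1.15 after MS with sucrose, against 0.258, 0.218, 0.214, 0.223, 0.304 and 0.392 in water. Samples 5 and 6 were the highest of both groups, samples 3 and 4 of MS with sucrose were the lowest of that group, and sample 3 was the lowest in water. Means with SD were 0.824 ± 0.384 in the group given MS with sucrose and 0.268 ± 0.0695 in the water group (n = 6 each). None of the 4 genes was listed at 0 in any sample.

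**Figure D1:**
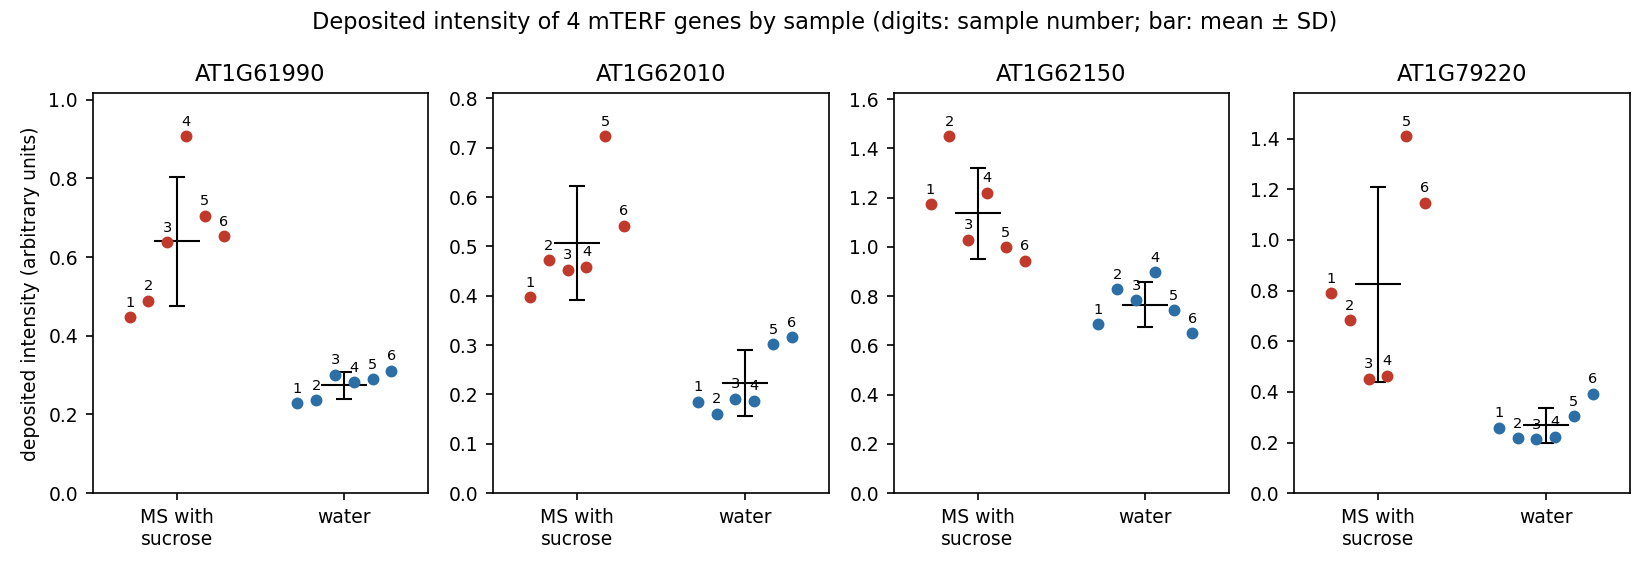
Deposited intensity in arbitrary units (vertical axes from 0, 1 panel per gene) in the 6 samples of MS with sucrose (red, left) and the 6 of water (blue, right); digits are sample numbers, and the bar is the mean ± SD. The groups do not overlap for any of the 4 genes, and samples 5 and 6 are highest in both groups for AT1G62010 and AT1G79220.

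The lack of overlap has to be read against the array. The sample medians over all probes were 0.309 to 0.339 after MS with sucrose and 0.171 to 0.188 in water, and 29.5% of all probes had all 6 samples of MS with sucrose above all 6 of water in deposited intensity. On the deposited log2 scale the 4 genes differed by 1.31 (AT1G79220), 1.01 (AT1G61990), 0.98 (AT1G62010) and 0.52 (AT1G62150); their median was 0.996, where the median of all probes was 0.38. Probes of like brightness, taken in 10 equal classes by mean intensity (344 probes each here), had larger differences than that median. In the class that holds AT1G79220 and AT1G61990 the median was 0.58, in that of AT1G62010 it was 0.71, and in that of AT1G62150 it was 0.45. AT1G79220 thus lay well above its class, AT1G61990 and AT1G62010 above theirs by less, and AT1G62150 close to its own. All 4 genes were called on the deposited scale by limma, where 51.1% of all probes were called, and 44.2% were called higher.

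**Figure D2:**
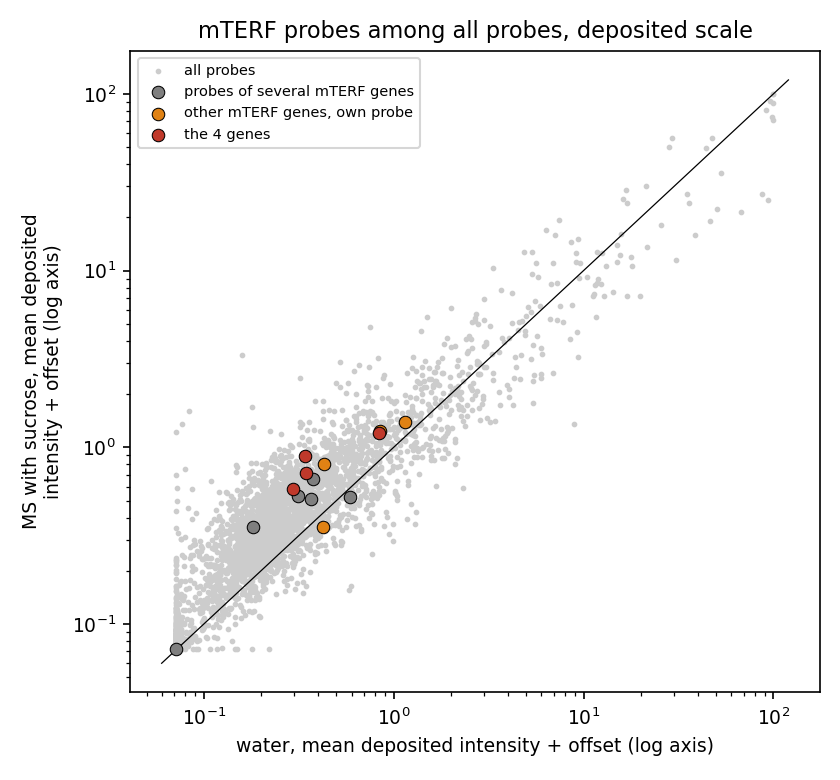
Mean deposited intensity plus the offset of 0.0718 after MS with sucrose (vertical, log axis) against water (horizontal, log axis), 1 point per probe, with the line of equal intensity. The 4 genes (red) lie above the line among the bulk of the array (light grey), the other mTERF genes with a probe of their own are orange, and probes annotated to several mTERF genes are dark grey.

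After quantile normalization the median of all probes was 0.00, and limma called 37.5% of them, 18.1% higher and 19.3% lower. Against that background 0 of the 4 mTERF genes were called at an adjusted p of 0.05. An unadjusted p under 0.05 by limma was reached by 2 of the 4, and by 1560 of all 3439 probes. AT1G79220 was at 0.69 (SE 0.27, 95% interval 0.10 to 1.29, adjusted p = 0.067 by limma). AT1G61990 was at 0.38 (SE 0.16, 95% interval 0.03 to 0.72, adjusted p = 0.0808 by limma). AT1G62010 was at 0.31 (SE 0.15, interval -0.01 to 0.63, adjusted p = 0.12 by limma), and AT1G62150 at 0.09 (SE 0.13, interval -0.18 to 0.37, adjusted p = 0.592 by limma). Among the 689 singly annotated genes these differences ranked 83rd, 166th, 192nd and 297th from the highest. The normalized groups overlapped for each of the 4 genes: 4 of the 6 samples of MS with sucrose lay above every water sample for AT1G79220 and for AT1G61990, and 2 of the 6 for AT1G62010 and for AT1G62150. On the array, 10.3% of all probes had every normalized sample of MS with sucrose above every water sample. The normalized log2 values differed by number as the deposited intensities did. For AT1G79220, numbers 5 and 6 averaged 0.20 after MS with sucrose and -1.003 in water, while numbers 3 and 4 averaged -1.25 after MS with sucrose and -1.39 in water.

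Samples with the same number deviated together from their group means, and the differences were therefore also taken within numbers. For AT1G61990 the normalized differences for numbers 1 to 6 were 0.10, 0.20, 0.23, 0.91, 0.49 and 0.31, all above 0, with number 4 far above the rest. For AT1G62010 they were 0.19, 0.55, 0.27, 0.34, 0.48 and 0.04, again all above 0, with number 6 nearest to no difference. For AT1G79220 they were 0.73, 0.72, 0.14, 0.15, 1.53 and 0.88. These fell into adjacent numbers: 3 and 4 were close to 0, 1 and 2 were alike, and 5 and 6 were the largest. For AT1G62150 they were 0.27, 0.39, -0.08, 0.07, -0.10 and 0.02, above 0 in 4 of 6 pairs.

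A sign-flip test over the 6 pairs gave an exact two-sided p of 0.0312, the smallest that 6 pairs allow, for AT1G61990, AT1G62010 and AT1G79220, and 0.406 for AT1G62150. These p-values are not adjusted over the array, where 17.2% of all probes were higher after MS with sucrose in 6 of 6 pairs. With the number as a replicate block, limma over all probes gave an adjusted p of 0.0435 for AT1G61990, 0.0286 for AT1G62010, 0.0327 for AT1G79220 and 0.387 for AT1G62150, so that 3 of the 4 genes were called higher. In that fit 38.3% of all probes were called, 18.6% higher and 19.7% lower. With the number as a random block, whose correlation is estimated over all probes, AT1G79220 was called (adjusted p = 0.0415 by limma), and AT1G61990 (adjusted p = 0.0517), AT1G62010 (adjusted p = 0.0762) and AT1G62150 (adjusted p = 0.531) were not, where 40.5% of all probes were called, 19.6% higher. The block treats the 6 pairs as independent, whereas adjacent numbers (1 and 2, 3 and 4, 5 and 6) also deviated together within a group. When adjacent numbers were averaged, 3 against 3, 0 of the 4 genes were called (adjusted p = 0.249 for AT1G61990, 0.33 for AT1G62010, 0.265 for AT1G79220 and 0.709 for AT1G62150 by limma), against 21.8% of all probes. With both the averages and the replicate block, 0 of the 4 were called, with adjusted p from 0.106 to 0.572 by limma, against 16.2% of all probes, 7.62% higher.

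**Figure D3:**
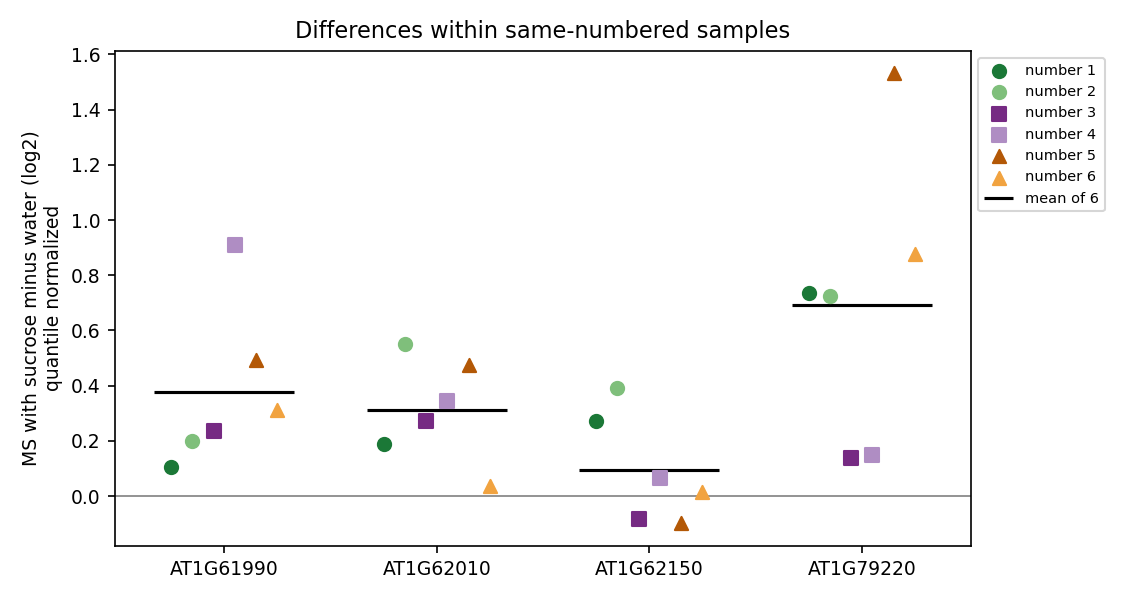
Normalized log2 difference, MS with sucrose minus water, within each of the 6 same-numbered pairs (points; circles are numbers 1 and 2, squares 3 and 4, triangles 5 and 6) for the 4 genes, with the mean of the 6 as a line. All 6 points lie above 0 for AT1G61990, AT1G62010 and AT1G79220, and 4 of 6 for AT1G62150.

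The call of these genes depended on the scaling. With cyclic loess AT1G79220 was called at 0.69 (adjusted p = 0.0386 by limma), where 36.2% of all probes were called, 18.0% higher. With each sample centred on its median, AT1G79220 (0.64, adjusted p = 0.0368 by limma) and AT1G61990 (0.34, adjusted p = 0.0497 by limma) were called, where 51.1% of all probes were called, 14.2% higher. The median of all probes lay at -0.29 under this centring. Centring shifts all probes of a sample alike, so these genes kept the distances from other probes that they had on the deposited scale. There the median of their brightness class was 0.58, above that of all probes at 0.38. AT1G62150 turned to -0.15 under median centring (adjusted p = 0.351 by limma). With the number as a block as well, 3 of the 4 genes were called under median centring (53.2% of all probes, 15.0% higher) and under cyclic loess (38.0% of all probes, 18.8% higher), each time all but AT1G62150, and all 4 on the deposited scale (51.6% of all probes, 44.6% higher). With adjacent numbers averaged 0 of the 4 were called under median centring, where 39.3% of all probes were called, 9.16% higher, and AT1G79220 had an adjusted p of 0.147 by limma. Averaging under cyclic loess likewise left 0 of the 4 called, where 22.2% of all probes were called, 10.7% higher, and AT1G79220 had an adjusted p of 0.182 by limma. On the deposited scale with adjacent numbers averaged all 4 were called, where 39.4% of all probes were called, 34.7% higher. Without numbers 3 and 4 of both groups AT1G79220 was at 0.98 and was called (adjusted p = 0.0287 by limma), where 27.2% of all probes were called. Leaving out numbers 5 and 6 instead, it was at 0.44 and was not (adjusted p = 0.127 by limma), where 33.1% of all probes were called.

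**Figure D4:**
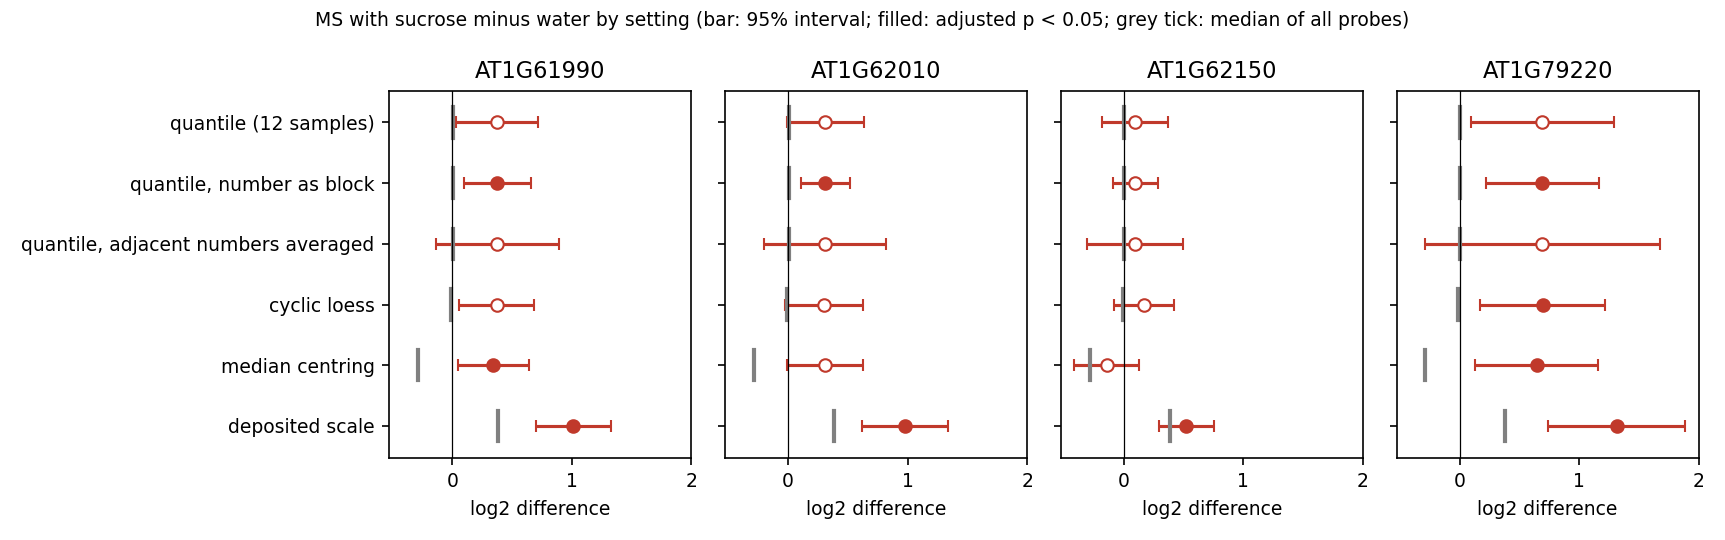
Log2 difference, MS with sucrose minus water, with its 95% interval from limma for each of the 4 genes (panels) under 6 settings (rows); filled points passed an adjusted p of 0.05 over all probes, and the grey tick is the median of all probes. AT1G62150 passed on the deposited scale and under no other of these 6 settings, and it is the gene whose difference changed sign, under median centring.

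Whether the genes changed unequally was asked through the log2 ratio of 2 probes within each sample, which was compared between the groups. Between the close neighbours AT1G61990 and AT1G62010 the changes differed by 0.06 (SE 0.19, exact permutation p = 0.755), the nearest of the 6 pairs. AT1G61990 changed by 0.28 more than AT1G62150 (SE 0.21, exact permutation p = 0.203), and AT1G62010 by 0.22 more than AT1G62150 (SE 0.25, exact permutation p = 0.39). The widest gap was between AT1G62150 and AT1G79220 at -0.60 (SE 0.38, exact permutation p = 0.173), with AT1G79220 the more positive in 6 of 6 same-numbered pairs. Within those pairs its exact sign-flip p was 0.0312, the smallest that 6 pairs allow, and 0.1875 adjusted over the 6 pairs of genes. AT1G61990 differed from AT1G79220 by -0.32 (SE 0.36, exact permutation p = 0.394), and AT1G62010 from AT1G79220 by -0.38 (SE 0.21, exact permutation p = 0.119). Adjusted over the 6 pairs of genes, the two-sided p-values were 0.407 to 0.755 by exact permutation and 0.1875 to 0.719 by exact sign flips. No pair of genes was thus shown to differ in its change. Single samples moved these differences. AT1G61990 against AT1G79220 was at -0.57 without sample 4 of MS with sucrose and at -0.15 without sample 5 of that group, and AT1G62150 against AT1G79220 was at -0.78 and -0.36 without the same samples. AT1G62010 against AT1G62150 was at 0.076 without sample 5 of MS with sucrose and at 0.34 without sample 6 of water. No adjusted p of these 3 was below 0.139 by exact permutation when 1 sample was left out. With these errors, unequal changes of the size seen for AT1G62150 and AT1G79220 were not resolved. On the deposited scale AT1G61990 changed by 0.49 more than AT1G62150 (exact permutation p = 0.0411, adjusted p = 0.13 by exact permutation), and AT1G62150 differed from AT1G79220 by -0.79 (exact permutation p = 0.0433, adjusted p = 0.13 by exact permutation).

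The family was represented beyond these genes. Of 35 Arabidopsis mTERF genes listed, 8 had a probe of their own, 4 of them outside the set above: AT3G18870, AT3G46950, AT4G09620 and AT5G55580. AT5G55580 encodes mTERF9, a plastid protein that acts in chloroplast ribosome assembly and translation. A further 6 probes, called A to F here, were annotated to 2, 3 or 4 genes, all of them in the family, and no gene is named as the source of their signal. Of those 8 genes, 0 were called higher and 1 lower after quantile normalization, where 18.1% of all probes were higher and 19.3% lower. On the deposited scale 7 were called higher and 0 lower, where 44.2% of all probes were higher and 6.89% lower.

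The gene called lower was AT3G18870. Its deposited intensities were 0.234, 0.327, 0.216, 0.177, 0.571 and 0.157 in samples 1 to 6 of MS with sucrose, against 0.391, 0.363, 0.340, 0.358, 0.335 and 0.332 in water. All samples of MS with sucrose lay below all water samples except number 5, which was the brightest of all 12. AT3G18870 was at a normalized difference of -0.99 (SE 0.21, adjusted p = 0.00307 by limma). On the deposited scale it was at -0.36 and was not called (adjusted p = 0.195 by limma). Within same-numbered pairs it was below 0 in 5 of 6, and at 0.02 for number 5. It was called lower with the replicate block (adjusted p = 0.0116 by limma) and with adjacent numbers averaged (adjusted p = 0.0157 by limma, where 11.7% of all probes were lower). With both, its adjusted p was 0.0505, and without numbers 3 and 4 it was 0.0751 by limma.

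Its change was set against those of the 4 genes after its values had been seen, so these tests are not independent of the choice. AT3G18870 changed by -1.68 relative to AT1G79220 (SE 0.27), by -1.36 relative to AT1G61990 (SE 0.30) and by -1.30 relative to AT1G62010 (SE 0.22), each in 6 of 6 same-numbered pairs and each with an exact permutation p of 0.00216, the smallest that 6 against 6 samples allow (0.00325 adjusted over the 6 comparisons chosen in this way). Relative to AT1G62150 it changed by -1.08 (SE 0.25, exact permutation p = 0.0108), in 5 of 6 pairs. Within same-numbered pairs the exact sign-flip p for AT1G62150 was 0.0625, adjusted 0.0625, so that this call was lost, and for the other 3 genes it was 0.0312, adjusted 0.0375. With adjacent numbers averaged, 3 against 3, each of these had an exact permutation p of 0.1, the smallest that design allows.

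The remaining genes of the family did not pass after quantile normalization of all 12 samples, and each passed under some other setting. AT3G46950 was at 0.28 (adjusted p = 0.233 by limma), with mean intensities and SD of 0.731 ± 0.157 in the group given MS with sucrose and 0.358 ± 0.0750 in the water group (n = 6 each), and it passed in 1 of the 12 fits that each left out 1 sample, that without sample 5 of MS with sucrose (adjusted p = 0.0403 by limma). AT5G55580 was at 0.10 (adjusted p = 0.507 by limma), with means and SD of 1.16 ± 0.205 in the group given MS with sucrose and 0.777 ± 0.0408 in the water group (n = 6 each). AT4G09620 was at -0.04 (adjusted p = 0.76 by limma), with means and SD of 1.33 ± 0.172 in the group given MS with sucrose and 1.08 ± 0.158 in the water group (n = 6 each). AT4G09620 was called in opposite directions by scaling, at 0.29 on the deposited scale (adjusted p = 0.0373 by limma), whereas median centring put it at -0.38 (adjusted p = 0.00369 by limma, where 37.0% of all probes were called lower). AT3G46950 was at 0.89 and AT5G55580 at 0.52 on the deposited scale, both called, and AT5G55580 was also called at 0.27 without numbers 1 and 2 (adjusted p = 0.0186 by limma).

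Probe A was annotated to 4 genes, among them AT1G61990 and AT3G46950, which also have probes of their own. It had intensities of 0.426, 0.347, 0.493, 0.320, 0.556 and 0.548 after MS with sucrose, against 0.568, 0.505, 0.514, 0.500, 0.546 and 0.451 in water. The groups overlapped in deposited intensity, while after normalization all 6 samples of MS with sucrose lay below all 6 of water, as did 12.6% of all probes. Its normalized difference was -0.81 (SE 0.12, adjusted p = 0.000223 by limma, lost with adjacent numbers averaged and a replicate block together), and -0.19 on the deposited scale (adjusted p = 0.226 by limma). Relative to the probe of AT1G61990 alone, probe A changed by -1.19 (SE 0.22, exact permutation p = 0.00216), and relative to that of AT3G46950 by -1.09 (SE 0.24, exact permutation p = 0.00649), each in 6 of 6 pairs. These comparisons too were chosen after the values were seen. Probes with an annotated gene in common thus moved differently, and which transcripts each of them detects was not tested, since no probe sequences were used here. A part of the signal of AT1G61990, AT1G62010 and AT1G62150 from near copies in the same stretch of chromosome was likewise not tested.

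Probes B and C, annotated to the same 2 genes, had normalized differences of 0.07 and 0.15 (adjusted p = 0.647 and 0.305 by limma). Probe D was listed at 0 in all 12 samples. Median centring shifts values at 0 as well, and under it probe D was called lower although it showed no signal. Probe E was at -0.19 (adjusted p = 0.436 by limma) and probe F at 0.26 (adjusted p = 0.472 by limma), with wide errors (SE 0.18 and 0.26).

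**Figure D5:**
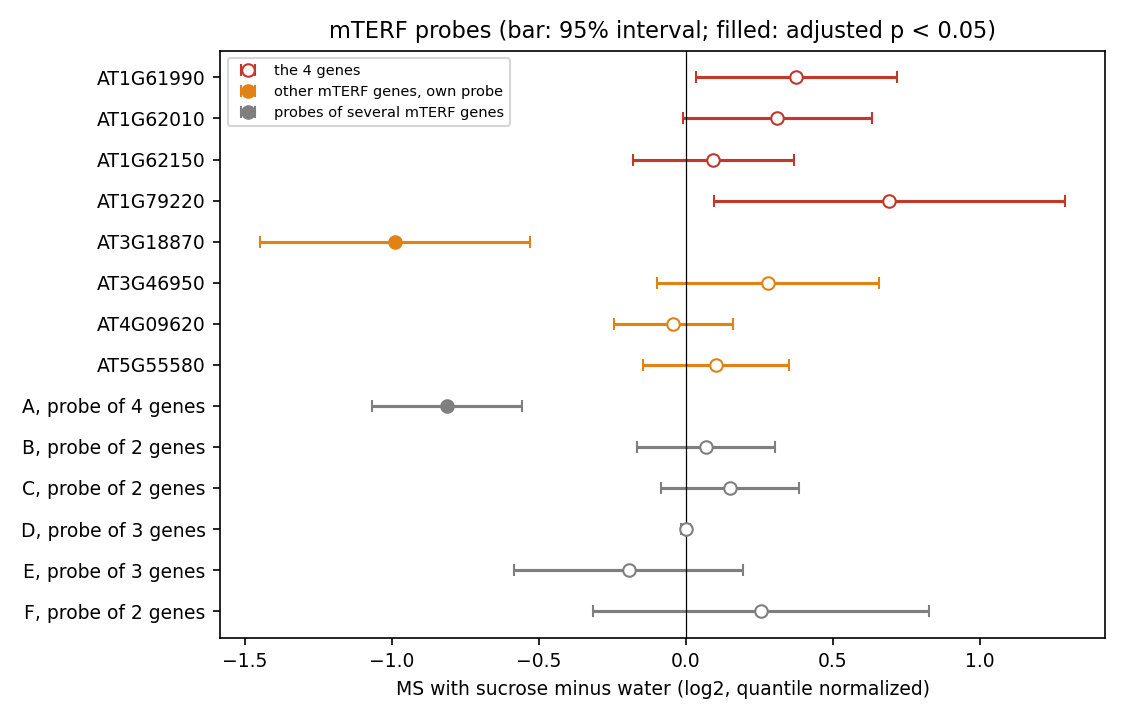
Normalized log2 difference, MS with sucrose minus water, with its 95% interval from limma for 14 mTERF probes: the 4 genes (red), 4 other genes with a probe of their own (orange) and 6 probes annotated to several mTERF genes (grey). Filled points passed an adjusted p of 0.05 over all probes; AT3G18870 and probe A did, both lower.

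Other genes of organelle gene expression were scarce on probes of their own. None of 9 organelle RNA polymerase and sigma factor genes and none of 22 genes of the plastid transcription complex and nucleoid had one. Of 12 genes for plastid RNA processing and binding, 2 had one and both were higher, where 18.1% of all probes were: AT1G12800 at 1.86 and AT1G01080 at 1.43 (adjusted p = 1.79e-06 and 0.00691 by limma). AT1G01080 was not called with adjacent numbers averaged (adjusted p = 0.109 by limma). This list was chosen with earlier results of these data known, so the count of both being higher does not stand as independent support. The 4 pentatricopeptide repeat genes looked at, from a family that acts on organelle RNA, had been picked for their calls in these samples, so their count is no independent evidence. AT3G13150 (0.70) and AT2G46050 (0.58) were higher, and OTP70 (AT4G25270, -0.92) and AT3G26630 (-0.60) were lower. AT2G46050 lost its call in 5 of the 12 fits without 1 sample and with adjacent numbers averaged (adjusted p = 0.163 by limma). OTP70 was at -0.29 on the deposited scale and was not called there (adjusted p = 0.0695 by limma).

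The genes whose same-numbered differences lay nearest to those of each mTERF gene were found by the mean absolute distance over the 6 pairs, on the normalized log2 scale, among 688 other genes. For AT1G79220 these were AT3G52070 (distance 0.16) and AT1G29700 (0.24), where the median distance of all was 0.74. For AT1G61990 they were AT2G43760 (0.13) and UPP (AT3G53900, 0.14), with a median of 0.54, and for AT1G62010 AT2G23390 (0.11) and AILP1 (AT5G19140, 0.12), with a median of 0.50. For AT1G62150 they were AT5G01960 (0.10) and AT2G27680 (0.10), with a median of 0.48. AT1G29700 was listed at 0 in 7 of the 12 samples, UPP and AT2G27680 in 8 and AT5G01960 in 10, so their nearness rests on values at the bottom of the scale. Of the 8 genes, AT3G52070, AT2G43760, AT2G23390 and AILP1 were never at 0. All probes share the same 12 samples, so such likeness is a description of these arrays.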

How the data were processed

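The deposited values were intensities, 1 per probe and sample, whose background correction, scaling and array type were not given in the sources used here. Of these intensities 13.6% were exactly 0, and precision is limited by the 12 samples. The highest value, 99.999999999, was shared by 55 intensities, and the meaning of this ceiling was not given. From the deposited intensities log2(intensity + 0.0718) was computed, the offset being the 10th percentile of the values above 0. Samples were quantile normalized because their medians lay up to 0.76 apart on the log2 scale. Most of this spread lay between the groups, with medians of 0.309 to 0.339 after MS with sucrose and 0.171 to 0.188 in water. Normalization removes such a shift, and a difference in scaling cannot be told apart here from a change across the array with treatment. The test on each probe was two-sided, 6 against 6, with eBayes and a mean-variance trend after lmFit (limma 3.58.1, R 4.3.3), adjusted by Benjamini-Hochberg over 3439 probes, with no filter on level. The test was checked on simulated data with independent errors and no normalization step, so the check does not cover samples that deviate together. Differences between 2 genes were tested by exact permutation of the samples, and by exact sign flips within same-numbered pairs.

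Of the probes 692 had 1 gene, 870 several and 1877 none named here, and 690 of the 692 matched the TAIR10.1 table. The 4 genes, the lists and the named genes (those with a probe of their own in each list, and the 2 nearest in pattern to each of the 4) were chosen with earlier results of these data known. Same-numbered samples of the 2 groups correlated in their deviations from the group means at 0.174 to 0.390 across probes in 6 of 6 pairs. Unlike numbers of the 2 groups correlated at -0.201 to 0.195. The highest was sample 5 of MS with sucrose with sample 6 of water, above the 0.174 of number 6 with itself. The samples were therefore paired by number, though for number 6 this is not separate from adjacent numbers. The pairing comes from the data, not the labels. Adjacent numbers within a group correlated at 0.121 to 0.309, and other numbers at -0.447 to -0.134. Subtracting the mean of the same group lowers these within-group values, below 0 on average even for independent samples. Alternatives were other scalings, offsets, filters, variance models, blocks, averages and left-out samples. Figures were drawn with matplotlib 3.10.9.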

Additional observations from a re-analysis of the deposited data

How the results depend on the processing

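The calls of the 4 genes depended on the setting more than their direction did. On the deposited scale, alone, with the replicate block or with adjacent numbers averaged, all 4 were called: AT1G61990 at 1.01, AT1G62010 at 0.98, AT1G62150 at 0.52 and AT1G79220 at 1.31, in fits that called 51.1%, 51.6% and 39.4% of all probes. Under median centring 2 were called (51.1% of all probes), AT1G61990 at 0.34 and AT1G79220 at 0.64, with the replicate block added 3 (53.2%), with AT1G62010 at 0.31, and with adjacent numbers averaged 0 (39.3%). Under cyclic loess 1 was called (36.2%), AT1G79220 at 0.69, with the replicate block added 3 (38.0%), with AT1G61990 at 0.37 and AT1G62010 at 0.30, and with adjacent numbers averaged 0 (22.2%). The replicate block (pairing by number) on the quantile scale called 3 (38.3%), AT1G61990 at 0.38, AT1G62010 at 0.31 and AT1G79220 at 0.69, and as a random block 1 (40.5%), AT1G79220 at 0.69; averaging adjacent numbers called 0 (21.8%), also with the block (16.2%). AT1G79220 was the 1 gene called with zeros missing (0.71, where 44.6% of 2975 probes were called) and without dim probes (0.69, 48.2% of 2579 probes). It was also the 1 gene called with robust eBayes (0.69, 37.8% of all probes) and without numbers 3 and 4 (0.98, 27.2%). Without numbers 1 and 2 the 1 gene called was AT1G61990 (0.48, 30.1% of all probes), and without numbers 5 and 6 it was AT1G62010 (0.34, 33.1%). AT1G62150 reversed to -0.15 under median centring, also with the block or adjacent numbers averaged, and to -0.024 without numbers 1 and 2. The combinations of a scaling with a block or with averages were chosen after seeing the data.

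Leaving out 1 sample at a time gave 0.26 to 0.47 for AT1G61990 (called without sample 1 of MS with sucrose, adjusted p = 0.0273 by limma), 0.22 to 0.38 for AT1G62010, 0.02 to 0.16 for AT1G62150 and 0.51 to 0.85 for AT1G79220 (called without sample 3 or sample 4 of MS with sucrose, lowest adjusted p = 0.0277 by limma), with 0 to 1 of the 4 called and 1138 to 1283 of all probes. Probes called in all numbered 751 with adjacent numbers averaged, 556 with the block added, and 763 with cyclic loess and averages. The difference of changes between AT1G61990 and AT1G62010 ranged from -0.079 to 0.13 without 1 sample and was -0.036 without numbers 3 and 4. No pair of the 4 genes passed under any setting run, but some settings could hardly give a pass. With adjacent numbers averaged none could, the smallest exact permutation p being 0.1. The smallest p was 0.0312 for sign flips and 0.0286 by exact permutation without 2 numbers, where a single pair of genes at that limit would not pass after adjustment. Among other probes AT4G09620 reversed to 0.29 on the deposited scale, 0.026 under cyclic loess and 0.056 without numbers 3 and 4 (and was called at -0.38 under median centring), AT5G55580 to -0.15 under median centring and -0.055 without numbers 5 and 6, probe B to -0.030 without numbers 5 and 6, probe E to 0.48 on the deposited scale and probe F to -0.080 without numbers 1 and 2. The cause of these changes was not tested. Intensities at 0 or near it have no order, and no probe sequences were used here, so signal from near copies could not be separated.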
